A study of Mus musculus with 16 samples.

Results

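The genes described here are 9 transcription factors of the astrocyte lineage, Sox2, Sox9, Nfia, Nfib, Nfix, Rorb, Lhx2, Zbtb20 and Pax6, chosen by symbol among the 24058 gene symbols of a striatal read-count table. All 9 symbols were found, and all 9 passed the filter on low counts. The astrocytes of adult male C57BL/6J wild-type mice, 9 weeks old, expressed 1 of 2 proteins: bARK, a piece of β-adrenergic receptor kinase made to dampen signalling through Gq, or bARK(D110A), its counterpart with a substitution in the Gq-binding part. Each striatum gave ribosome-bound RNA pulled down by a hemagglutinin tag in astrocytes (IP) and RNA of the cleared lysate (input). The 4 groups, bARK IP, bARK input, bARK(D110A) IP and bARK(D110A) input, had 4 libraries each, so every group carried one of the expressed proteins and the tag, and none was untouched. Neither the promoter nor the means of delivery is given in the sources used here. Numbers 1 to 4 in the labels are taken as mice, which the labels do not state in words, so the p-values speak of the spread between libraries of a group, which may be technical.

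Glial fate in the embryonic brain is set by a small circuit of such factors. Sox2, an HMG-box protein, keeps neural progenitors undifferentiated and remains in adult astrocytes. Sox9, a related HMG-box protein, turns progenitors toward glia and induces Nfia. Nfia, Nfib and Nfix are nuclear factor I (NFI) proteins that start and sustain the astrocyte program. Rorb is a retinoid-related orphan nuclear receptor best known from retina and cortical layer 4 neurons. Lhx2, a LIM-homeodomain protein, and Pax6, a paired-box protein, pattern the forebrain and act in radial glia. Zbtb20, a BTB zinc finger protein, acts in hippocampal neurons and promotes the formation of astrocytes.

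The total count per library was 41469718 to 47157883 in bARK IP, 27807178 to 38003523 in bARK input, 44638121 to 51432173 in bARK(D110A) IP and 29087537 to 37333254 in bARK(D110A) input. All 12 astrocyte markers were higher in IP than in input with both proteins, at a median log2 fold change of 2.60 with bARK and 2.40 with bARK(D110A). All 8 microglia markers and all 6 endothelial markers were lower in IP with both. The pulldown was not free of other cells: of 8 striatal interneuron markers 6 were higher in IP with each protein, and of 6 ependymal markers 5 were. The interneuron markers Calb2 and Pvalb were the exceptions, and the ependymal marker Ttr was lower in IP with both proteins. Levels are given as CPM, counts scaled to a common library total by the trimmed mean of M values (TMM), so they are relative to the whole library. In such bulk RNA, fewer cells of a type and less RNA per cell cannot be told apart.

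In GRCm38 the RefSeq gene spans are chr3:34649995-34652461 for Sox2, chr11:112782210-112787757 for Sox9, chr4:97578066-98118876 for Nfia, chr16:42875689-43634392 for Zbtb20, chr2:38339271-38369737 for Lhx2 and chr2:105668896-105698410 for Pax6, all on the plus strand. Nfib at chr4:82290173-82506751, Nfix at chr8:84704712-84801238 and Rorb at chr19:18930609-19111196 lie on the minus strand. Sox2 is a gene of 1 exon, and the others have 3 to 18 separate exon blocks in GENCODE M21. Their exons hardly touch those of other genes: the longest shared stretch is 137 bases of Nfix, 2.02% of its exon length, with G430095P16Rik on the opposite strand.

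RefSeq promoters of GRCm38.p6 were at hand for 7 of the 9 genes, as 13 windows of the 250 bases upstream of a start site. A window each of 5 genes is printed, to show the sequence at a start site of genes with stronger pulldown (Rorb, Lhx2 and Sox2) and weaker pulldown (Nfia and Zbtb20). They lie at chr19:19111197-19111446 (minus strand) for Rorb, and on the plus strand at chr2:38339031-38339280 for Lhx2, chr3:34649745-34649994 for Sox2, chr4:97581693-97581942 for Nfia and chr16:43247034-43247283 for Zbtb20. None of the 5 overlaps a GENCODE exon, although those of Nfia and Zbtb20 lie within the longer span of their gene, upstream of an internal start. The last bases of the Lhx2 window also lie inside the RefSeq span of Lhx2. Each is written 5′ to 3′ along the gene's strand, and capitals mark a match to a searched motif.
Rorb: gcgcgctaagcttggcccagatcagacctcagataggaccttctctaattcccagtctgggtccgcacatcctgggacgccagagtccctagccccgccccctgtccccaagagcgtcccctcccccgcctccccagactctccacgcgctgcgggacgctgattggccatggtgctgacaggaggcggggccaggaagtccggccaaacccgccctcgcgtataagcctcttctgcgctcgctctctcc
Lhx2: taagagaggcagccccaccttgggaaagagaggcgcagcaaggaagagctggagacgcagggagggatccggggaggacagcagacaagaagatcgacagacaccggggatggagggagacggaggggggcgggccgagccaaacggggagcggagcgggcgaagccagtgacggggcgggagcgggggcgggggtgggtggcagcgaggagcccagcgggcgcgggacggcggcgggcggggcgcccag
Sox2: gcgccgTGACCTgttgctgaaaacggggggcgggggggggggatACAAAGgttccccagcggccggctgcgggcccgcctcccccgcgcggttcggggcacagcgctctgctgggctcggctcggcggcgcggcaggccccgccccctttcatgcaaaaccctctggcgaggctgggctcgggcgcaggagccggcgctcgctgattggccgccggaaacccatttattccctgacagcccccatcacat
Nfia: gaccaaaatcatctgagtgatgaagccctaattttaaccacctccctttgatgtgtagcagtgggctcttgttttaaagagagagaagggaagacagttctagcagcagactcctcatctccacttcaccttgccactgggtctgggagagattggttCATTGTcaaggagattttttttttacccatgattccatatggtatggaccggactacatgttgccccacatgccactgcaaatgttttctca
Zbtb20: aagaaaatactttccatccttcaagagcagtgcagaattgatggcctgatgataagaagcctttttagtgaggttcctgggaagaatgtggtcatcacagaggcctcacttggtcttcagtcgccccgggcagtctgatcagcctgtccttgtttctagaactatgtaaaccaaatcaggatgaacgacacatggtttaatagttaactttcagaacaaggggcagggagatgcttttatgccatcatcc
Of the printed windows, G and C make up 66.0% for Rorb, 72.8% for Lhx2, 72.0% for Sox2 and 44.8% for both Nfia and Zbtb20, and the median over all 32851 windows of the table is 52.4%. This does not divide the genes by pulldown, because the internal starts of Nfia and Zbtb20 stand here beside starts at or near the outer end of the other genes, and windows of 1 gene differ as widely. The other Rorb window has 39.2% G and C and 4 CpG dinucleotides, against 18 in the printed one. The Pax6 windows have 60.8% and 47.6%, and the 4 Nfix windows have 42.0% to 58.4% with 1 to 11 CpG dinucleotides. The motifs searched on both strands were the NFI palindrome and the NFI short form TTGGCA, the SOX cores ACAATG and ACAAAG, the LIM-homeodomain core TAATTA, the ROR site AGGTCA and TATAAA. Sox2 has ACAAAG at position -206 from its start, and AGGTCA on the opposite strand at -244. Nfia has ACAATG on the opposite strand at -92. Rorb, Lhx2 and Zbtb20 have no match in the printed windows. ACAAAG stands in 16.5% of all windows, AGGTCA in 14.0%, ACAATG in 10.7%, TTGGCA in 12.3%, TATAAA in 12.4%, TAATTA in 4.84% and the NFI palindrome in 0.0365%. Neither NFI form is in any of the 13 windows.

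**Figure D1:**
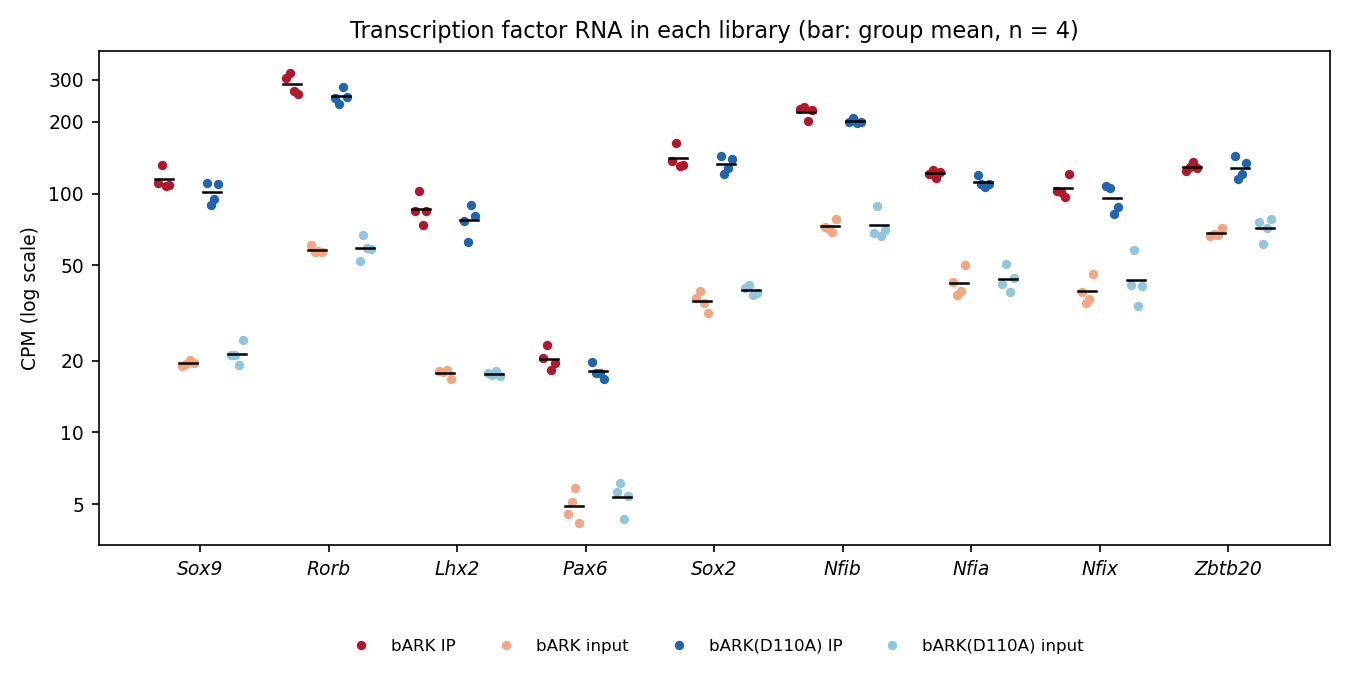
CPM of each gene on a log scale, 1 point per library and a bar at the mean of 4, with bARK IP, bARK input, bARK(D110A) IP and bARK(D110A) input from left to right. For each gene and each protein the 4 IP libraries stand above the 4 input libraries, while points of the 2 proteins lie side by side.

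All 9 factors were higher in astrocyte ribosome RNA than in whole striatum, with both proteins, and for none did an IP library overlap an input library. Among the 15850 genes tested, 75.8% were called in either direction with bARK and 73.7% with bARK(D110A), at an adjusted p under 0.05 (edgeR quasi-likelihood test). The share called higher in IP was 37.6% with bARK and 36.5% with bARK(D110A), and the share called lower was 38.1% and 37.2%. Without overlap of libraries, 36.1% were higher with bARK and 31.3% with bARK(D110A). The log2 fold changes of the 9 ran from 0.92 to 2.56 with bARK and from 0.84 to 2.24 with bARK(D110A). Their medians were 1.99 and 1.74, against -0.01 for all genes tested in each case. Adjusted p was at most 4.59e-07 with bARK and 5.94e-06 with bARK(D110A). The summed CPM of the 9 genes was 1148 to 1327 in bARK IP against 348 to 375 in bARK input, and 1064 to 1172 in bARK(D110A) IP against 348.4 to 412.5 in bARK(D110A) input. The 8 interneuron markers had median log2 fold changes of 2.14 with bARK and 2.05 with bARK(D110A). Nos1, the highest of them, had 2.58 ± 0.10 and 2.39 ± 0.10. Calb2 had 0.13 ± 0.41 with bARK and 0.05 ± 0.39 with bARK(D110A), and Pvalb had -0.27 ± 0.39 and -0.71 ± 0.38. Neither was called with either protein. The summed CPM of the 8 interneuron markers was 1085 to 1356 in bARK IP against 245 to 275 in bARK input. With bARK(D110A) it was 964.5 to 1243 in IP against 223.5 to 316 in input. The 6 ependymal markers summed to 66.8 to 99.1 CPM in bARK IP against 18.3 to 21.1 in bARK input, and to 43.2 to 131.5 CPM in bARK(D110A) IP against 18.7 to 39.5 in bARK(D110A) input. Ttr of the ependymal list had -2.5 ± 0.75 with bARK and -2.0 ± 0.66 with bARK(D110A), with adjusted p = 0.00692 and 0.0125 (edgeR). No marker of either list was at 0, and the part of interneurons and ependymal cells in the factors' values was not tested.

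Sox9, which turns progenitors toward glia, had the largest enrichment of the 9. It stood at 111, 132, 108 and 109 CPM in bARK IP against 19.0, 19.4, 20.2 and 19.5 CPM in bARK input. With bARK(D110A) it stood at 111, 89.4, 94.9 and 109 CPM in IP against 21.2, 21.0, 19.1 and 24.3 CPM in input. The input libraries were thus close together, and every IP library was well above them. Sox9 was 5.89-fold higher in IP with bARK (log2 2.56 ± 0.09, SE, adjusted p = 1.07e-13) and 4.73-fold higher with bARK(D110A) (2.24 ± 0.09, 5.85e-13). Of all genes tested 99.2% had a smaller log2 fold change with bARK, and 99.0% with bARK(D110A).

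Sox2, the progenitor factor, had 137, 163, 130.5 and 132 CPM in bARK IP against 36.4, 39.0, 34.9 and 31.5 CPM in bARK input. In bARK(D110A) it had 144, 121, 128 and 139 CPM in IP against 40.2, 41.6, 37.5 and 38.5 CPM in input. Its enrichment was 3.97-fold with bARK (log2 1.99 ± 0.08, adjusted p = 6.56e-13) and 3.37-fold with bARK(D110A) (1.75 ± 0.08, 3.73e-12). Sox2 lies in an intron of the noncoding RNA gene Sox2ot, which is transcribed from the same strand and whose exons do not overlap those of Sox2. Sox2ot was not enriched: it averaged 40.6 ± 5.76 CPM in bARK IP against 46.1 ± 6.19 in bARK input, and 44.5 ± 12.1 CPM in bARK(D110A) IP against 51.9 ± 8.48 in bARK(D110A) input (SD, n = 4 each). Its log2 fold changes were -0.18 ± 0.18 with bARK and -0.22 ± 0.18 with bARK(D110A), with adjusted p = 0.375 and 0.289 in the edgeR fit.

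Rorb, the orphan nuclear receptor, had 304, 319, 269.5 and 261 CPM in bARK IP against 61.0, 57.2, 57.3 and 57.2 CPM in bARK input. In bARK(D110A) mice it had 250.4, 236, 280.3 and 253 CPM in IP against 52.2, 67.3, 59.0 and 58.8 CPM in input. The lowest IP library of the 8 was thus 236 CPM and the highest input library 67.3 CPM. The enrichment was 4.95-fold with bARK (log2 2.31 ± 0.08, adjusted p = 1.03e-13) and 4.30-fold with bARK(D110A) (2.10 ± 0.08, 3.82e-13).

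Lhx2, the LIM-homeodomain factor, had 84.1, 103, 73.8 and 84.2 CPM in bARK IP against 18, 17.9, 18.2 and 16.8 CPM in bARK input. With bARK(D110A) it had 76.5, 62.7, 89.6 and 80.3 CPM in IP against 17.7, 17.4, 18 and 17.3 CPM in input. Its input levels varied least of all 9 genes with bARK(D110A), at a coefficient of variation of 1.80%, whereas its IP levels varied by 14.5%. The enrichment was 4.86-fold with bARK (log2 2.28 ± 0.10, adjusted p = 4.21e-12) and 4.38-fold with bARK(D110A) (2.13 ± 0.10, 1.17e-11).

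Pax6, the paired-box factor, was the scarcest of the 9 but was counted in every library, by 717 to 995 reads in bARK IP and 149 to 235 reads in bARK input. It had 20.5, 23.2, 18.3 and 19.5 CPM in bARK IP against 4.58, 5.11, 5.88 and 4.19 CPM in bARK input. In bARK(D110A) it had 19.7, 17.7, 17.7 and 16.8 CPM in IP against 5.62, 6.17, 4.36 and 5.40 CPM in input. Low as these levels were, the libraries did not overlap, and Pax6 was 4.12-fold higher in IP with bARK (log2 2.04 ± 0.11, adjusted p = 3.97e-11) and 3.34-fold higher with bARK(D110A) (1.74 ± 0.11, 3.53e-10).

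The 3 NFI genes were enriched less than the SOX genes. Nfib had 227, 230.3, 200.5 and 224 CPM in bARK IP against 72.7, 71.1, 69.3 and 78.2 CPM in bARK input. With bARK(D110A) it had 199, 208, 198 and 199.9 CPM in IP against 68.6, 88.8, 66.1 and 70.7 CPM in input. Mouse 2 of bARK(D110A) had the highest input level, and the other input libraries lay close together. The enrichment was 3.03-fold with bARK (log2 1.6 ± 0.08, adjusted p = 4.92e-12) and 2.74-fold with bARK(D110A) (1.45 ± 0.08, 1.97e-11).

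Nfia, which Sox9 induces in the embryo, had 121, 126, 116 and 124 CPM in bARK IP against 42.5, 37.6, 39.2 and 50 CPM in bARK input. Under bARK(D110A) there were 120.0, 110.1, 106 and 110 CPM in IP against 41.7, 50.7, 38.8 and 44.1 CPM in input. Here the input was the more variable of both kinds of RNA, with a coefficient of variation of 13.1% in bARK input and 11.6% in bARK(D110A) input against 3.43% in bARK IP and 5.24% in bARK(D110A) IP. Nfia was 2.87-fold higher in IP with bARK (log2 1.52 ± 0.08, adjusted p = 4.38e-11) and 2.55-fold higher with bARK(D110A) (1.35 ± 0.08, 2.46e-10).

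Nfix, the third NFI gene of the set, had 102, 102, 96.6 and 120.3 CPM in bARK IP against 38.8, 34.8, 36.3 and 46.1 CPM in bARK input. Its bARK(D110A) levels were 107, 105, 82.4 and 87.6 CPM in IP against 41.5, 58.3, 33.8 and 40.9 CPM in input. It had the widest spread of the 9 in bARK(D110A) input, at a coefficient of variation of 23.8%, and the largest standard error. The enrichment was 2.70-fold with bARK (log2 1.43 ± 0.15, adjusted p = 4.59e-07) and 2.19-fold with bARK(D110A) (1.13 ± 0.15, 5.94e-06).

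Zbtb20, the BTB zinc finger factor, was enriched least. It had 125, 129, 135 and 128 CPM in bARK IP against 66.3, 67.6, 67.1 and 71.8 CPM in bARK input. Mice with bARK(D110A) had 143, 115, 121 and 134 CPM in IP against 76.3, 61.2, 71.6 and 78.1 CPM in input. The IP libraries were above the input libraries without overlap, yet the enrichment was only 1.90-fold with bARK (log2 0.92 ± 0.07, adjusted p = 3.93e-09) and 1.79-fold with bARK(D110A) (0.84 ± 0.07, 1.55e-08). Of all genes tested, 84.9% had a smaller log2 fold change than Zbtb20 with bARK, and 85.5% with bARK(D110A).

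**Figure D2:**
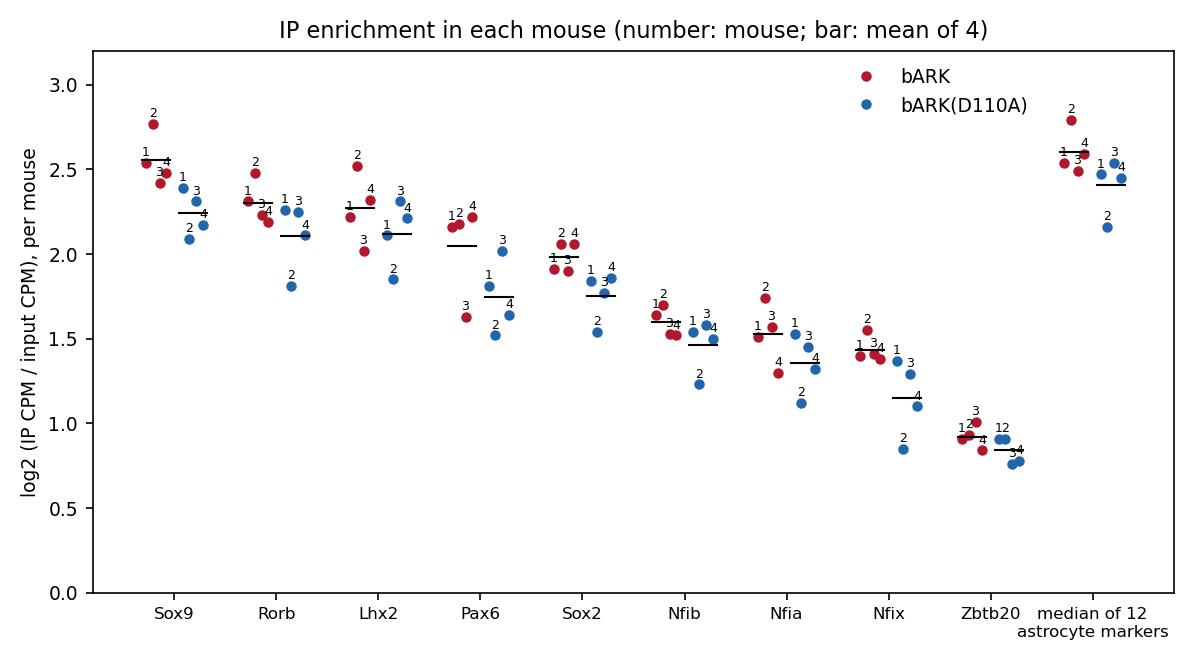
Log2 ratio of IP CPM to input CPM in each mouse for the 9 genes and for the median of 12 astrocyte markers, with bARK to the left of bARK(D110A), numbers for mice and bars at the mean of 4. Mouse 2 of bARK(D110A) is lowest of its 4 for 8 of 9 genes, and the ratios step down from Sox9 at 2.40 to Zbtb20 at 0.88 over the 8 mice.

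Within each mouse the IP level was set against the input level of the same mouse. Over the 8 mice the mean log2 ratio was 2.40 ± 0.21 (SD) for Sox9, 2.21 ± 0.19 for Rorb, 2.20 ± 0.21 for Lhx2, 1.90 ± 0.28 for Pax6 and 1.87 ± 0.17 for Sox2. It was 1.53 ± 0.14 for Nfib, 1.44 ± 0.19 for Nfia, 1.29 ± 0.22 for Nfix and 0.88 ± 0.08 for Zbtb20. Neighbours in this order that did not differ beyond the SD of their per-mouse difference were Rorb and Lhx2 (0.01 ± 0.13), Pax6 and Sox2 (0.03 ± 0.20) and Nfib and Nfia (0.09 ± 0.10). Sox9 was above Rorb in 8 of 8 mice, by 0.19 ± 0.10, and Lhx2 was above Pax6 in 8 of 8, by 0.30 ± 0.16. Sox2 exceeded Nfib in 8 of 8 mice, by 0.34 ± 0.10. Nfia exceeded Nfix in 7 of 8, by 0.15 ± 0.10, and Nfix exceeded Zbtb20 in 7 of 8, by 0.41 ± 0.21. In each of the 8 mice the lowest of Sox9, Rorb, Lhx2, Pax6 and Sox2 stood above the highest of the NFI genes and Zbtb20, a split that was chosen after the values were seen. The narrowest gap was in mouse 3 of bARK, at 1.63 against 1.57.

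The ratios were also set against the enrichment of astrocyte markers in each mouse, which depends on the same IP and input libraries. The median log2 ratio of the 12 astrocyte markers was 2.54, 2.79, 2.49 and 2.59 in the mice with bARK and 2.47, 2.16, 2.54 and 2.45 in those with bARK(D110A). Sox9 followed this median closely: it differed from it by -0.05 ± 0.05 with bARK and by -0.17 ± 0.11 with bARK(D110A) (SD, n = 4 each). Rorb differed from it by -0.30 ± 0.08 with bARK and -0.30 ± 0.06 with bARK(D110A), and Lhx2 by -0.33 ± 0.09 and -0.28 ± 0.06. Nfib ran parallel to the markers but lower, at -1.01 ± 0.09 with bARK and -0.94 ± 0.01 with bARK(D110A). Zbtb20 was furthest below, at -1.68 ± 0.16 with bARK and -1.57 ± 0.23 with bARK(D110A). The mouse with the highest marker median with bARK, mouse 2, had the highest IP level of 7 of the 9 genes and the highest ratio of 7 of 9. The mouse with the lowest median with bARK(D110A), also numbered 2, had the lowest ratio of 8 of 9 genes, Zbtb20 being the exception.

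Levels of different genes were compared only per length, as CPM per kilobase of merged exons. Sox2, with a short single exon, had the highest level, at 68.3 ± 7.41 CPM per kilobase in bARK IP and 64.7 ± 5.14 in bARK(D110A) IP (SD, n = 4 each), against 17.2 ± 1.51 in bARK input and 19.2 ± 0.898 in bARK(D110A) input. In bARK IP it was followed by Rorb at 30.5 ± 2.91 CPM per kilobase, Sox9 at 27.8 ± 2.81, Lhx2 at 25.6 ± 3.59 and Nfib at 23.9 ± 1.47, and each of these differed from the next by less than the larger SD of the pair. Nfix at 15.5 ± 1.52 and Nfia at 12.8 ± 0.438 CPM per kilobase came next. Zbtb20, whose merged exons span 27143 bases, had 4.77 ± 0.160 CPM per kilobase and Pax6 had 2.95 ± 0.305. The order in bARK(D110A) IP was identical. In bARK input the level order differed after Sox2, with Nfib second at 7.89 ± 0.416 CPM per kilobase, followed by Rorb at 6.15 ± 0.202 and Nfix at 5.74 ± 0.741. With the length of the longest coding transcript instead, Lhx2 passed Sox9 in IP and Nfix passed Rorb in bARK input.

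The genes most alike to each factor were found as those with the smallest root-mean-square difference of centred log2 CPM over the 16 libraries, among 10023 genes with a mean of at least 10 CPM. All libraries share the step from input to IP, which makes up most of each profile. Sox2 was closest to Hadh, a mitochondrial fatty acid oxidation enzyme, at 0.059 log2 units, and to Slc8b1, a mitochondrial sodium-calcium exchanger, at 0.076. Sox9 was closest to Maob, a monoamine oxidase, at 0.098 and to Gstm1, a glutathione transferase, at 0.099. Rorb was closest to Mcc at 0.063 and to Phyh, a peroxisomal enzyme, at 0.071. Lhx2 was closest to Gfra1, a GDNF co-receptor, at 0.098 and to the plexin Plxnb1 at 0.1, and Pax6 to Agtrap at 0.1 and the polarity gene Pard3b at 0.113. Nfia was closest to Nfib at 0.083 and to Fmnl2, a formin, at 0.084, and Nfib was closest to Tcf4, a basic helix-loop-helix factor, at 0.081 and then to Nfia. Nfix had no gene as near, its closest being Nfia and Shisa4, both at 0.136. Zbtb20 was closest to Arfip1 at 0.080 and to Phkb, a phosphorylase kinase subunit, at 0.081.

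**Figure D3:**
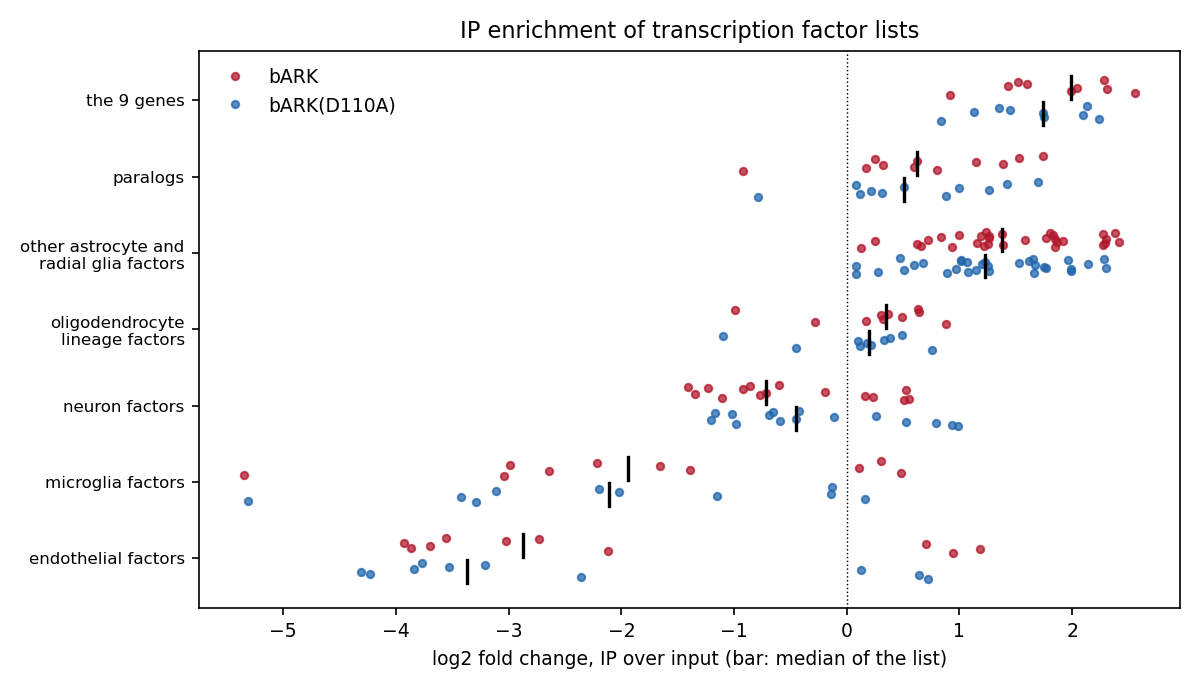
Log2 fold change of IP over input for the genes of 7 transcription factor lists, bARK above bARK(D110A) in each row, with a bar at the list's median. The 9 genes have the highest medians, 1.99 with bARK and 1.74 with bARK(D110A), and most microglia and endothelial factors lie far below 0.

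Paralogs of the 9 factors did not move as one. Of 16 paralogs 11 passed the filter, and 9 were higher and 1 lower in IP with bARK, while 6 were higher and 1 lower with bARK(D110A). Their median log2 fold change was 0.62 with bARK and 0.51 with bARK(D110A), below those of the 9 factors. Lhx6 and Lhx8, LIM-homeodomain factors of ventral forebrain interneurons, rose by 1.74 ± 0.10 and 1.53 ± 0.10 on the log2 scale with bARK and by 1.70 ± 0.10 and 1.42 ± 0.10 with bARK(D110A). Sox1, a close relative of Sox2, rose by 1.39 ± 0.07 with bARK and 1.26 ± 0.07 with bARK(D110A). Nfic, the NFI gene outside the 9, had 0.25 ± 0.10 with bARK (adjusted p = 0.0267) and 0.08 ± 0.10 with bARK(D110A) (0.439). Sox8, related to Sox9, had 0.17 ± 0.06 with bARK (adjusted p = 0.0096) and 0.12 ± 0.06 with bARK(D110A) (0.0511). Zbtb18, a zinc finger repressor known from neurons, had -0.92 ± 0.09 with bARK and -0.79 ± 0.09 with bARK(D110A).

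Among 31 other factors of astrocytes and radial glia, 3 of which are also paralogs of the 9, 30 were higher in IP with bARK and 27 with bARK(D110A), and none was lower. The median log2 fold change was 1.38 with bARK and 1.23 with bARK(D110A). Nr2e1, the orphan receptor of neural stem cells, had 2.42 ± 0.08 with bARK and 2.30 ± 0.08 with bARK(D110A), above Rorb in both. Dbx2, a homeobox gene, had 2.38 ± 0.07 with bARK and 2.28 ± 0.07 with bARK(D110A), and Id2, an inhibitor of DNA binding, had 2.30 ± 0.11 and 2.14 ± 0.11. At the low end Zeb1 had 0.13 ± 0.07 with bARK and 0.08 ± 0.07 with bARK(D110A), with adjusted p = 0.0853 and 0.285 (edgeR), and Tcf7l1 had 0.66 ± 0.26 and 0.28 ± 0.26, with adjusted p = 0.0296 and 0.339.

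All 10 genes described as targets of Sox9 or NFI factors were higher in IP with both proteins, at median log2 fold changes of 2.31 with bARK and 2.15 with bARK(D110A). Most of them, such as Slc1a3, Aqp4, Gfap, Aldoc, Gja1 and S100b, are themselves astrocyte markers. Gfap, the glial filament, had the largest log2 fold change of the list, 3.01 ± 0.32 with bARK and 2.65 ± 0.31 with bARK(D110A). Next were Aqp4, the water channel, with 2.72 ± 0.10 with bARK and 2.48 ± 0.10 with bARK(D110A), and Slc1a3, a glutamate transporter, with 2.61 ± 0.06 and 2.43 ± 0.06. The smallest were Apcdd1, a Wnt inhibitor, with 0.44 ± 0.08 with bARK and 0.37 ± 0.08 with bARK(D110A), Zcchc24 with 1.17 ± 0.07 and 0.89 ± 0.07, and the fatty acid binding gene Fabp7 with 1.06 ± 0.17 and 1.05 ± 0.17.

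Factors of other cell types differed from the 9 in direction or size. Of 15 neuron factors that passed the filter, 1 was higher in IP and 9 were lower with each protein, and the median log2 fold change was -0.72 with bARK and -0.45 with bARK(D110A). Meis2, Ebf1 and Foxp1, all striatal projection neuron factors, were among the lower ones. Meis2 had -1.35 ± 0.07 with bARK and -1.2 ± 0.07 with bARK(D110A), Ebf1 had -1.41 ± 0.10 and -1.17 ± 0.10, and Foxp1 had -1.23 ± 0.09 and -1.02 ± 0.09. Tbr1 and Neurod6, factors of cortical projection neurons, were among the highest values of the list with bARK(D110A), 0.99 ± 1.11 and 0.79 ± 0.97, with adjusted p = 0.434 and 0.479 (edgeR). Of 10 oligodendrocyte lineage factors 3 were higher and 1 lower with bARK, and 1 was higher and 1 lower with bARK(D110A). In that list Zfp536 had 0.88 ± 0.14 with bARK and 0.76 ± 0.14 with bARK(D110A), and Myt1 had -0.99 ± 0.08 and -1.1 ± 0.08.

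Of 10 microglia factors 7 were lower with each protein, led by Spi1, the myeloid master factor, with log2 fold changes of -5.35 ± 0.30 with bARK and -5.31 ± 0.29 with bARK(D110A). Runx1 had -2.64 ± 0.23 with bARK and -3.42 ± 0.24 with bARK(D110A), and Tal1 had -3.04 ± 0.45 and -3.29 ± 0.45. Sall1 had 0.48 ± 0.09 with bARK (adjusted p = 0.000137) and 0.16 ± 0.09 with bARK(D110A) (0.115). Of 10 endothelial factors 7 were lower with each protein. Sox17 and Sox18, SOX genes of vessels, fell, opposite in direction to Sox2 and Sox9. Sox17 had -3.7 ± 0.28 with bARK and -4.31 ± 0.29 with bARK(D110A), and Sox18 had -3.87 ± 0.29 and -4.23 ± 0.29. Sox7 of the same list rose by 1.18 ± 0.25 with bARK and by 0.64 ± 0.25 with bARK(D110A).

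**Figure D4:**
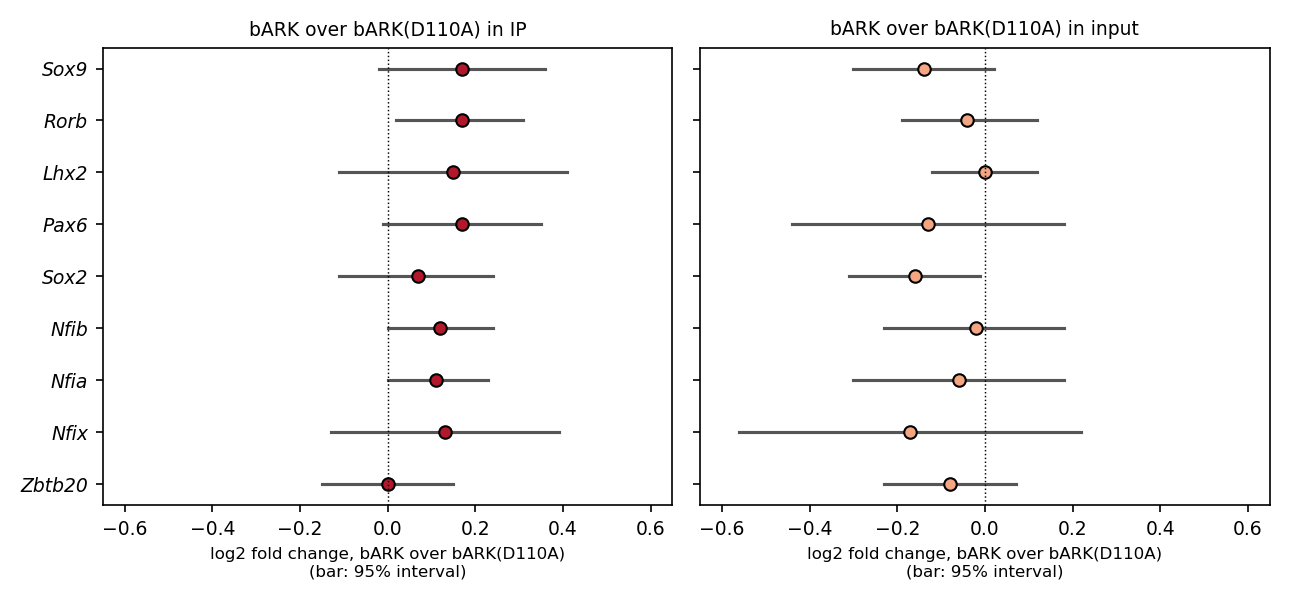
Log2 fold change of bARK over bARK(D110A) for each gene, in the 8 IP libraries (left) and the 8 input libraries (right), with 95% confidence intervals from the edgeR fit. No gene passed the adjusted threshold, and the intervals lie between -0.15 and 0.41 in IP and between -0.56 and 0.22 in input.

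None of the 9 factors differed between bARK and bARK(D110A) past the threshold, in IP or in input. Of 15006 genes tested in IP 0 were called, or 0.0%, with 1287 genes at an unadjusted p under 0.05 (8.58%), and DESeq2 called 37 genes higher and 11 lower, none of them among the 9. Libraries of both proteins overlapped for all 9, where 2.95% of genes were higher and 1.27% lower without overlap. The log2 fold changes of bARK over bARK(D110A) in IP were 0.17 ± 0.09 for Sox9, 0.17 ± 0.07 for Rorb, 0.17 ± 0.08 for Pax6 and 0.15 ± 0.11 for Lhx2. They were 0.13 ± 0.11 for Nfix, 0.12 ± 0.05 for Nfib, 0.11 ± 0.05 for Nfia, 0.07 ± 0.08 for Sox2 and 0.00 ± 0.07 for Zbtb20. Rorb had the smallest p of the 9, with an unadjusted p = 0.0285 and an adjusted p = 0.554 in edgeR. The 95% intervals allow changes between -0.15 and 0.41 on the log2 scale, so larger differences in ribosome-bound RNA are outside them for each gene.

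In input 0 of 15361 genes were called, or 0.0%, with 904 at an unadjusted p under 0.05 (5.89%), and DESeq2 called 2 higher and 0 lower, none of the 9 among them. Libraries overlapped for all 9 genes, where 1.93% of genes were higher and 1.32% lower without overlap. Sox2 was lowest in rank of p, with a log2 fold change of -0.16 ± 0.07 (unadjusted p = 0.0337, adjusted p = 0.774, edgeR). Sox9 had -0.14 ± 0.07, Nfix -0.17 ± 0.17, Pax6 -0.13 ± 0.14 and Zbtb20 -0.08 ± 0.07, while Nfia had -0.06 ± 0.11, Rorb -0.04 ± 0.07, Nfib -0.02 ± 0.09 and Lhx2 0.00 ± 0.05. The intervals reach from -0.56 to 0.22, both ends set by Nfix.

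The IP enrichment itself was then compared between the proteins. The difference, bARK minus bARK(D110A), was called for 0 of 15850 genes (0.0%), with 951 at an unadjusted p under 0.05 (6.0%, edgeR), and for 0 by DESeq2. With a replicate block by mouse, which pairs IP and input, 0 genes were called and 1851 had an unadjusted p under 0.05 (edgeR). Without the block the difference was positive for all 9 factors and for 55.2% of all genes. For the 9 it lay between 0.08 ± 0.10 for Zbtb20 and 0.32 ± 0.12 for Sox9, with a median of 0.21. The difference was 0.30 ± 0.16 for Pax6, 0.30 ± 0.21 for Nfix, 0.23 ± 0.11 for Sox2 and 0.21 ± 0.11 for Rorb. Single libraries moved several of these values: without replicate 2 of bARK(D110A) input the difference was 0.11 ± 0.17 for Nfix and 0.12 ± 0.09 for Rorb, and without replicate 2 of bARK IP it was 0.15 ± 0.10 for Sox2. Sox9 and Sox2 had unadjusted p = 0.0162 and 0.0485, and the adjusted p of the 9 ran from 0.825 to 0.919 (edgeR). The 12 astrocyte markers had a median difference of 0.24, and none of them was called either. A positive difference was not particular to astrocyte genes. Marker medians were 0.26 for microglia, 0.21 for endothelial cells, 0.30 for oligodendrocyte precursors, 0.27 for ependyma and 0.24 for neural stem cells and neuroblasts. They were 0.12 for interneurons, 0.10 for mural cells and 0.09 for oligodendrocytes, but -0.17 for medium spiny neurons and -0.13 for pan-neuronal markers. The 3 comparisons of the proteins, in IP, in input and in enrichment, use the same libraries, so their values are not independent of one another.

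**Figure D5:**
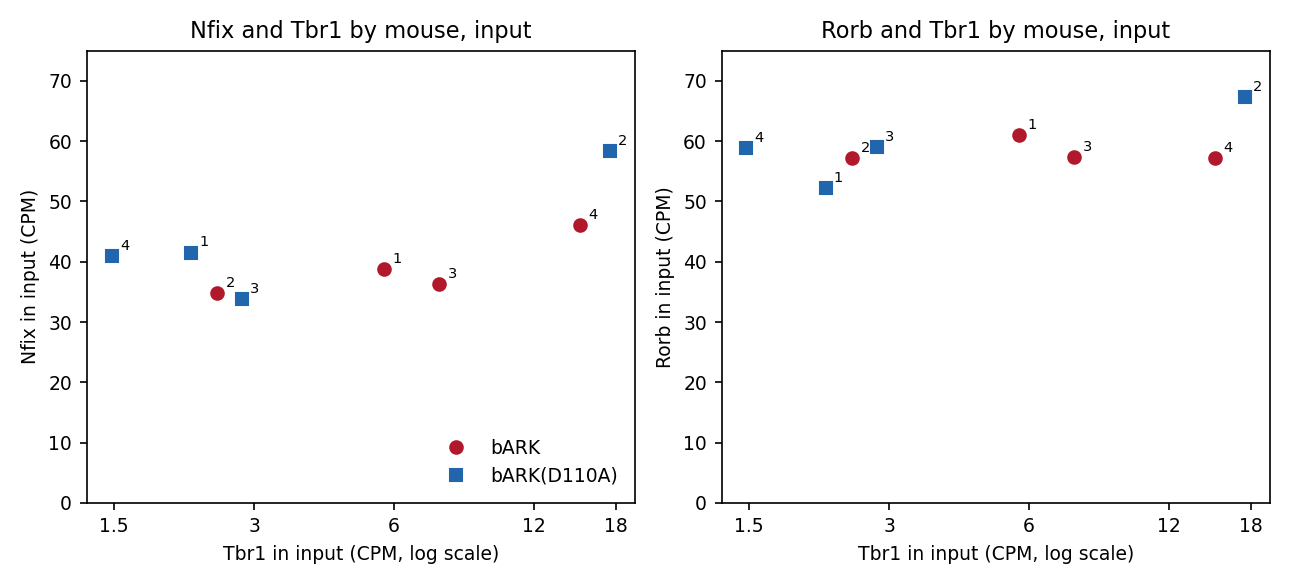
Input CPM of Nfix (left) and Rorb (right) against input CPM of Tbr1 on a log scale, 1 point per mouse, circles for bARK and squares for bARK(D110A). Mouse 4 of bARK and mouse 2 of bARK(D110A) have the highest Tbr1 and the highest Nfix of their groups, while Rorb is highest in mouse 2 of bARK(D110A) but not in mouse 4 of bARK.

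The NFI genes were highest in input in the mice that were also highest in genes of cortical neurons, which were examined after the values were seen. Tbr1, a factor of cortical projection neurons, had 12.6, 2.22, 2.24 and 27.2 CPM in bARK IP and 5.71, 2.50, 7.51 and 15.1 CPM in bARK input. In bARK(D110A) it had 2.48, 35.8, 6.62 and 3.39 CPM in IP and 2.19, 17.5, 2.82 and 1.48 CPM in input. Mouse 4 of bARK and mouse 2 of bARK(D110A) thus stood apart in both kinds of RNA. Neurod2 and Neurod6 were highest in the same mice. Those mice also had the highest input Nfia, Nfib and Nfix of their groups: Nfix was 46.1 CPM in mouse 4 of bARK and 58.3 CPM in mouse 2 of bARK(D110A), against 33.8 to 41.5 CPM in the other 6. This was not confined to NFI genes: mouse 2 of bARK(D110A) was highest in input for Sox2, Rorb and Pax6 too, and mouse 4 of bARK for Zbtb20. Input of mouse 2 of bARK(D110A) was also highest of its group in summed oligodendrocyte (9843 CPM), astrocyte (6807 CPM) and interneuron markers (316 CPM). Input of mouse 4 of bARK was highest in none of these lists. In summed pan-neuronal markers both were highest of their groups, at 4461 CPM in mouse 4 of bARK and 4518 CPM in mouse 2 of bARK(D110A). In medium spiny neuron markers mouse 2 of bARK(D110A) was lowest of its group, at 8378 CPM. Mouse 4 of bARK, at 9943 CPM, was neither highest nor lowest there. The part of cortical tissue in these values was not tested.

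Without these mice the enrichment of all 9 factors was still called with both proteins. The log2 fold changes ran from 0.95 to 2.58 with bARK and from 0.82 to 2.29 with bARK(D110A). Nfix, the most variable, had 1.45 ± 0.10 with bARK and 1.26 ± 0.10 with bARK(D110A). The difference in enrichment between the proteins was then 0.29 ± 0.14 for Sox9 and 0.13 ± 0.11 for Sox2, with a median of 0.13 over the 9 factors, and again no gene was called.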

How the data were processed

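RNA was counted in 16 libraries of mouse striatum, 4 per group. Per the labels' protocols, 100 ng of column-purified RNA per sample went into the Nugen Ovation system with mRNA enrichment, and libraries were paired-end. The authors deposited whole-number read counts per gene and library, and the tools listed are bcl2fastq 2.17, limma, HTSeq and STAR on build mm10, per the submitters' processing notes. Strand setting, annotation and the other tools' versions are not given in the sources used here. Reads of overlapping genes are therefore uncertain. The table has 24060 lines for 24058 symbols, and 4017 genes had 0 reads throughout.

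From these counts edgeR 4.0.16 in R 4.3.3 gave CPM with TMM scaling and robust quasi-likelihood F tests, after filterByExpr with a minimum count of 10. P-values were adjusted by Benjamini-Hochberg over all genes tested, with a threshold of 0.05. IP against input and the difference of the enrichment came from a fit of all 16 libraries, and bARK against bARK(D110A) from the 8 IP or the 8 input libraries. In the report ± after a log2 fold change is the standard error, and after CPM or a per-mouse ratio the SD. Scripts were tested on simulated data.

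The 9 genes, the gene lists and the tests were chosen with earlier results of these data known. Besides the 9 genes, the text names for each of them the 2 genes most alike in profile, and from each transcription factor list its counts and members among the 3 lowest and 3 highest log2 fold changes of IP over input with bARK(D110A), some of which are not reported here. Tbr1, Neurod2, Neurod6, Sox2ot, G430095P16Rik, Nos1, Pvalb, Calb2 and Ttr were named after their values were seen. Promoters come from RefSeq and exon lengths from GENCODE M21, both on GRCm38, the assembly of mm10.

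Numbers pair IP and input of a mouse, since the design text takes both from each striatum, and deviations of IP and input with the same number correlated at 0.213 to 0.453 with bARK and 0.353 to 0.639 with bARK(D110A). Alternatives were DESeq2 1.42.0, other scalings, no filter, a replicate block, fits of a single construct's libraries and leaving out each library.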

Additional observations from a re-analysis of the deposited data

Results flagged for a closer look

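Of 54 groups of 4 values of the 9 genes, 3 had a sample far from the others by Dixon's criterion, for which chance gives about 1 in 20. Sox9 was at 132 CPM in mouse 2 of bARK IP, against 108 to 111 CPM in the other libraries of that group. Rorb was at 61.0 CPM in mouse 1 of bARK input, against 57.2 to 57.3 CPM in the others. The log2 ratio of IP to input of Pax6 was 1.63 in mouse 3 of bARK, against 2.16 to 2.22 in the others.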

How the results depend on the processing

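The calls of the 9 genes in IP against input kept their direction and their side of the threshold in all 15 alternatives with each protein, with log2 fold changes between 0.78 and 2.59 with bARK and between 0.68 and 2.33 with bARK(D110A). Those alternatives include the replicate block by mouse, with which 6308 genes were higher and 6351 lower with bARK, and 6152 higher and 6248 lower with bARK(D110A), against 5966 and 6044 with bARK and 5786 and 5891 with bARK(D110A) without it. The block changed no call of the 9. Scaling by library size only moved the median log2 fold change of all genes to -0.15 with bARK and -0.16 with bARK(D110A). It gave 4806 higher and 7333 lower genes with bARK (39.6% of the calls higher, against 49.7% with TMM), and 4459 and 7473 with bARK(D110A) (37.4% against 49.6%). The difference of the enrichment was not called for any of the 9 genes in 22 alternatives. Leaving out each library in turn kept it positive, with ranges of 0.15 to 0.26 for Sox2, 0.23 to 0.35 for Sox9, 0.0801 to 0.25 for Nfia, 0.0275 to 0.18 for Nfib, 0.11 to 0.39 for Nfix, 0.12 to 0.25 for Rorb, 0.0527 to 0.23 for Lhx2, 0.0253 to 0.14 for Zbtb20 and 0.21 to 0.39 for Pax6.

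Of bARK against bARK(D110A), DESeq2 called 37 genes higher and 11 lower in IP, and 2 higher in input. No alternative called any of the 9 genes. Some differences changed sign, none past the threshold, among them the input values of Nfix and Pax6, which were -0.17 and -0.13 with all libraries. With the number shared by the constructs as a replicate block, a number that pairs no mice (correlations -0.366 to -0.142 in IP and -0.0784 to 0.207 in input), Zbtb20 was 0.00468 in IP. With library size only, Lhx2 in input was -0.0216. Without the pair of mice highest in Tbr1, an alternative chosen after seeing the data, input values were 0.0471 for Nfib, 0.0418 for Rorb and 0.0179 for Pax6. Leaving out each library in turn gave -0.00787 to 0.11 for Sox2 and -0.041 to 0.0584 for Zbtb20 in IP. In input it gave -0.15 to 0.0263 for Nfia, -0.0758 to 0.0856 for Nfib, -0.28 to 0.00915 for Nfix, -0.0874 to 0.0354 for Rorb and -0.0113 to 0.0248 for Lhx2. The cause of these changes was not tested. Pax6 input rests on 149 to 235 reads a library with bARK and 168 to 217 with bARK(D110A).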
